A study of Mus musculus with 8 samples.

Results

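Oligodendrocyte precursor genes are a group of 10 genes that mark the immature, dividing stage of the oligodendrocyte lineage: Pdgfra, Cspg4, C1ql1, Gpr17, Neu4, Ptprz1, Sox6, Nkx2-2, Matn4 and Lhfpl3. They were chosen by name with earlier results of these data known, as were the other gene lists below. Their counts are therefore only described beside the shares of all genes. Of the 10, 9 were measured, by 18 of 45037 probe sets. The signal of Neu4 was not analysed here. A probe set was used for a gene only where it was annotated to that 1 symbol, and the gene is represented by its probe set with the highest mean log2 signal over the 8 arrays, which gave 18193 genes in all. The other probe sets are given beside it.

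Optic nerves of C57BL/6 mice aged P35-45, cleaned of arachnoid and left attached to the retina, were cultured for 3 days in organotypic medium with horse serum. The medium contained saline in 4 samples, called control, and 20 mM lithium chloride in the other 4, called lithium. The labels state 6 nerves per sample and extraction with a Mini kit. Strain, kit and number of nerves are given otherwise in the paper. Whether samples within a group are separate cultures or mice is not stated anywhere, and the p-values therefore cover the spread among these 8 samples alone, which could be technical. Values are MAS5 signals, linear intensities that the authors scaled to the same trimmed mean on every array, 100 here. The median signal of an array lay between 12.3 and 17.5, and precision is limited by how many arrays there are. Lithium array 1 had the lowest median signal and the highest 3′ over 5′ signal of Gapdh on the log2 scale, a sign of RNA quality (0.53, against 0.34 to 0.43 on the other 7 arrays). The tissue label was checked on cell type markers: the summed signal of 27 myelin genes was 23908 to 24834 in control and 23486 to 29548 in lithium, and that of 16 astrocyte markers 12220 to 12960 and 10564 to 12028.

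Oligodendrocyte precursors are the main dividing cells of adult white matter, where they renew themselves and give rise to myelinating oligodendrocytes. Platelet-derived growth factor from astrocytes and neurons drives their division and survival through the receptor encoded by Pdgfra. On differentiation the cells switch off Pdgfra and Cspg4, pass through a stage marked by Gpr17 and then make myelin, while Olig1, Olig2 and Sox10 stay on throughout the lineage.

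Of the 9 precursor genes, 7 had a lower mean signal in lithium than in control, and for 4 of them, Pdgfra, C1ql1, Matn4 and Lhfpl3, every lithium array lay below every control array. The log2 differences of these 4 genes ran from -1.52 to -2.68. None of the 9 passed an adjusted p of 0.05 in limma, whereas 3.23% of all genes passed, 2.05% lower and 1.18% higher. At an unadjusted p under 0.05 the same 4 genes were lower and 0 were higher, against 12.6% of all genes lower and 9.38% higher. Non-overlapping groups were seen with lithium lower in 8.79% of all genes and with lithium higher in 6.3%, and 50.3% of all genes had a difference below 0. The median log2 difference was -0.80 over the 9 genes and -0.0028 over all genes. In a bulk sample, fewer cells of a type and less RNA per cell cannot be told apart.

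**Figure D1:**
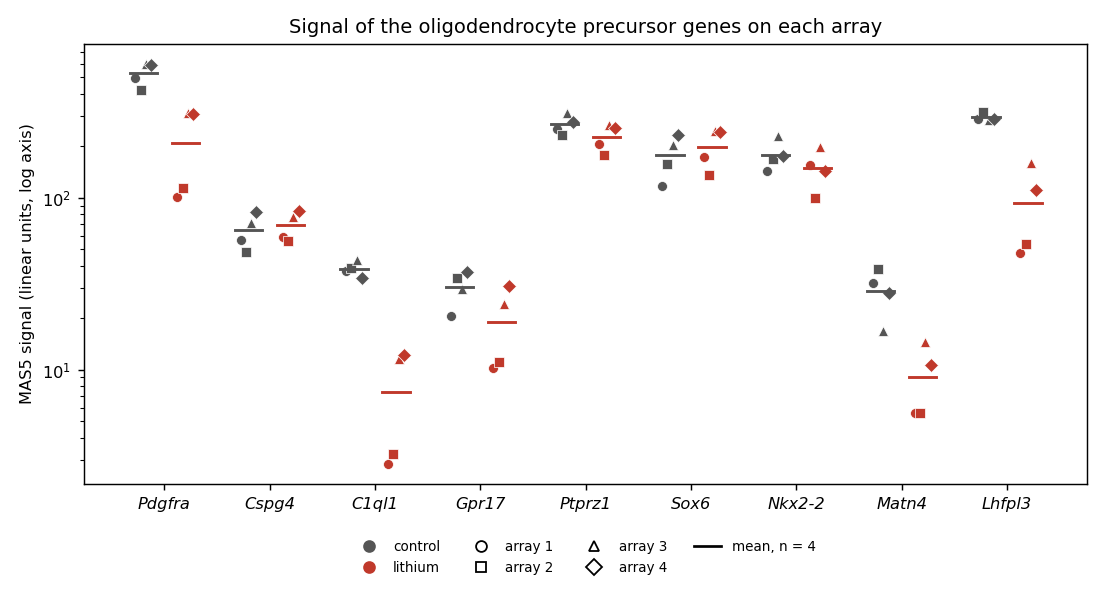
MAS5 signal (log axis) of the 9 measured precursor genes on each of 4 control arrays (grey) and 4 lithium arrays (red), 1 marker shape per array number, with the group mean as a bar. The red points of Pdgfra, C1ql1, Matn4 and Lhfpl3 lie below all grey points, and those of Cspg4 and Sox6 overlap with them.

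Pdgfra encodes the alpha receptor for platelet-derived growth factor, the surface receptor by which precursors are usually purified. Its main probe set, 1421917_at, gave 493, 425, 599 and 592 in the control arrays and 101, 114, 312 and 307 in the lithium arrays, each in the order of replicates 1 to 4, as throughout. The highest lithium array was below the lowest control array, and lithium arrays 1 and 2 were lower than arrays 3 and 4. The mean was 527 ± 83.5 in control and 208 ± 117 in lithium (SD, n = 4 each). The log2 difference was -1.52 (standard error 0.43, 95% interval -2.54 to -0.51), which is 2.87-fold lower (adjusted p = 0.124 in limma). A second probe set, 1421916_at, differed by -1.62 (adjusted p = 0.204 in limma), and only lithium array 3, at 23.9, reached the lowest control array, at 23.4. The third, 1438946_at, differed by -0.31, with 37.8 and 41.8 on lithium arrays 1 and 2, below the control range of 57.5 to 92.0, and 94.6 and 114 on lithium arrays 3 and 4, above it.

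Pdgfra is also known from fibroblasts of the meninges. Among 16 meningeal fibroblast markers, 4 fell in limma and 0 rose, against 2.05% and 1.18% of all genes, with a median log2 difference of -1.52. Their summed signal was 6002 to 8466 in control and 3428 to 4979 in lithium. Foxc1, a forkhead factor of the meninges, fell by 1.64 in log2 units (limma adjusted p = 0.0108), and its call held when each array was left out in turn but not with the replicate block (adjusted p = 0.0564 in limma), under which 0 of the 16 passed. Col3a1, a fibrillar collagen, fell by 2.41 (adjusted p = 0.0321 in limma), a call that held without lithium array 4 and was lost without any other array (adjusted p up to 0.0885). The part of these cells in the Pdgfra values was not tested.

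Cspg4 and Ptprz1 encode chondroitin sulphate proteoglycans of the precursor surface, the first known as NG2 and the second a receptor tyrosine phosphatase. Cspg4 gave 57.0, 48.6, 71.3 and 82.9 in control and 59.0, 56.0, 77.6 and 84.1 in lithium (1423341_at). Its groups overlapped almost fully, with means of 64.9 ± 15.2 and 69.2 ± 13.8 (SD, n = 4 each) and a log2 difference of 0.10, whose 95% interval was -0.40 to 0.60 (adjusted p = 0.873 in limma). The direction turned to -0.030 without control array 2 and to -0.0014 without lithium array 4. The second probe set differed by 0.25 (adjusted p = 0.778 in limma). Pericytes express Cspg4 too: of 14 markers of pericytes and smooth muscle, 1 fell, Pdgfrb, and 0 rose (all genes: 2.05% and 1.18%). Their median log2 difference was -0.75, 12 were below 0, and 5 were lower and 1 higher at an unadjusted p under 0.05, whereas their summed signals overlapped (1478 to 2319 in control and 1545 to 2570 in lithium). Their part in the Cspg4 values was not tested.

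Ptprz1 gave 252, 230.1, 311 and 276 in control and 205, 177, 265 and 255 in lithium (1452284_at). The groups overlapped, and the log2 difference was -0.26 (95% interval -0.63 to 0.12, adjusted p = 0.477 in limma). Its probe sets were not alike. For 1418690_at the signal was 204, 167, 256 and 277 in control and 91.6, 128, 155 and 179 in lithium, groups that overlapped between 167 and 179, and a log2 difference of -0.72 (adjusted p = 0.195 in limma). For 1427019_at the difference was -0.13. Ptprz1 is also expressed by astrocytes. None of 16 astrocyte markers passed in limma (all genes: 2.05% lower and 1.18% higher). At an unadjusted p under 0.05, 3 of the 16 passed, all lower (all genes: 12.6% lower), and their median log2 difference was -0.24 over the 16. The lowest adjusted p among them was that of Slc4a4, a sodium bicarbonate cotransporter (-0.49, adjusted p = 0.0768 in limma).

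C1ql1, a secreted protein of the C1q family, had a low signal in control and a lower one in lithium. Its only probe set, 1422777_at, gave 37.6, 39.0, 43.5 and 34.2 in control and 2.82, 3.25, 11.5 and 12.2 in lithium. All lithium arrays were below all control arrays, with means of 38.6 ± 3.82 and 7.44 ± 5.09 (SD, n = 4 each). The log2 difference was -2.68 (standard error 0.54, 95% interval -3.95 to -1.41), the lowest of the 9 genes on this scale. The adjusted p in limma was 0.0571. It was 0.0094 to 0.0410 under 6 of the 19 other settings that tested the gene, and it did not pass under the other 13 (up to 0.139). On lithium arrays 1 and 2 the signal was under the highest poly-A spike-in control on the same array (4.33 and 3.99), so that 2 of 4 lithium arrays measured it above that level, and the size of the difference is uncertain. With 16 added before the log2, it was -1.24, nearer to 0 than the differences of Lhfpl3 (-1.63) and Pdgfra (-1.43), and C1ql1 was no longer the lowest.

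Matn4 encodes matrilin-4, an adaptor protein of the extracellular matrix. The signal of 1418464_at was 31.7, 38.6, 16.7 and 28.0 in control and 5.61, 5.62, 14.5 and 10.6 in lithium. The groups did not overlap, but control array 3 and lithium array 3 lay close together. The means were 28.8 ± 9.17 and 9.09 ± 4.32 (SD, n = 4 each), and the log2 difference was -1.72 (standard error 0.40, 95% interval -2.67 to -0.77, adjusted p = 0.0827 in limma).

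Lhfpl3 is a tetraspan membrane protein of the lipoma HMGIC fusion partner family, and precursors are among its known sites of expression in the brain. Its main probe set, 1433990_at, gave 285, 313, 285 and 287 in control and 47.7, 53.7, 159 and 111 in lithium. The control arrays lay close together, and even the highest lithium array was far below them. The mean was 293 ± 13.7 in control and 92.9 ± 52.5 in lithium (SD, n = 4 each), a log2 difference of -1.83 (standard error 0.39, 95% interval -2.76 to -0.91), or 3.57-fold lower (adjusted p = 0.0672 in limma). Without lithium array 3 the difference was -2.15 and passed (adjusted p = 0.0485 in limma). The second probe set, 1429592_at, gave 93.4, 113, 152 and 168 in control and 16.4, 24.7, 84.7 and 57.3 in lithium. It did not overlap between the groups either and differed by -1.77 (adjusted p = 0.146 in limma).

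Gpr17, a G protein-coupled receptor, peaks in precursors committed to differentiation. The signal of 1456833_at was 20.5, 34.1, 29.4 and 36.8 in control and 10.3, 11.0, 24.0 and 30.5 in lithium. Lithium arrays 1 and 2 were below the control range and arrays 3 and 4 inside it. The log2 difference was -0.80 (95% interval -1.77 to 0.17, adjusted p = 0.378 in limma).

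Of the transcription factors, Sox6 restrains differentiation of precursors, and Nkx2-2 is a homeodomain protein that acts at the onset of differentiation. Sox6 gave 117, 157, 202 and 230.1 in control and 171, 136, 243 and 240 in lithium (1434918_at). The groups overlapped, with a log2 difference of 0.16 (95% interval -0.49 to 0.82, adjusted p = 0.827 in limma), which turned to -0.017 without control array 1. The other 3 Sox6 probe sets differed by 0.012, 0.23 and -0.18. Nkx2-2 gave 142, 168, 228 and 175 in control and 156, 99.9, 197 and 143 in lithium (1421112_at). Its groups overlapped as well, and its log2 difference was -0.28 (95% interval -0.83 to 0.27, adjusted p = 0.624 in limma).

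**Figure D2:**
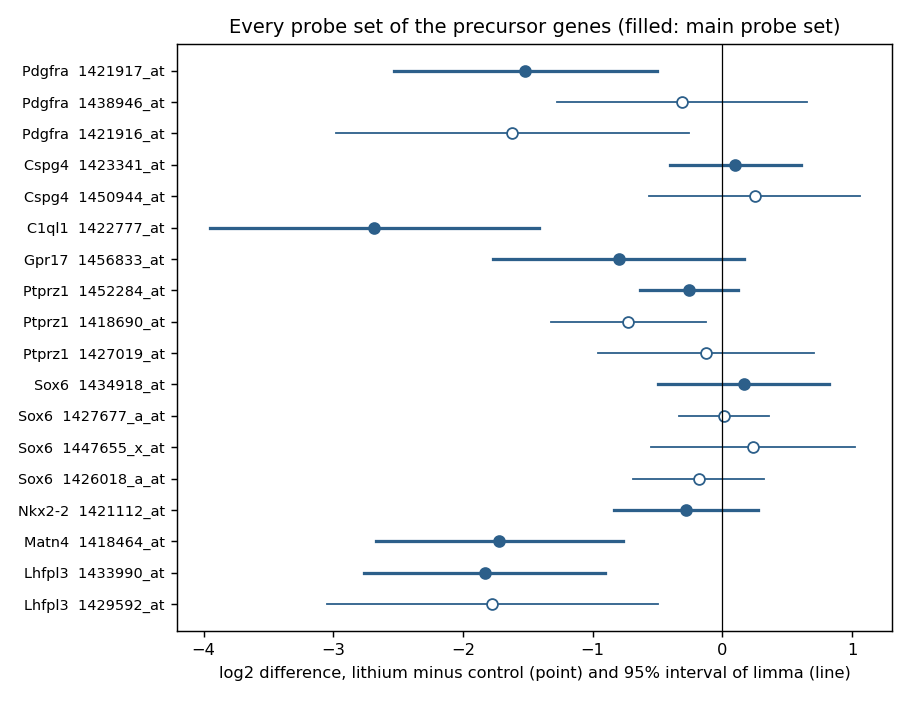
Log2 difference, lithium minus control, of all 18 probe sets of the precursor genes, with the 95% interval of limma as a line and filled points for the main probe set of each gene. The intervals of C1ql1, Matn4, both Lhfpl3 probe sets and the Pdgfra probe sets 1421917_at and 1421916_at lie wholly below 0, and so does that of Ptprz1 1418690_at.

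Promoter sequence was read for 8 of the 10 genes from RefSeq (GRCm38.p6), as the 250 bases before each start site. Shown are the windows of 3 genes whose groups did not overlap and, for contrast, that of Cspg4. 3 hexamers were searched on both strands and are in capitals where found: CAGCTG, an E-box of the kind bound by basic helix-loop-helix factors, ACAAAG, a core of SOX factor sites, and TCAAAG, a core of TCF/LEF sites. CAGCTG reads the same on both strands.
Pdgfra, chr5:75152001-75152250, plus strand: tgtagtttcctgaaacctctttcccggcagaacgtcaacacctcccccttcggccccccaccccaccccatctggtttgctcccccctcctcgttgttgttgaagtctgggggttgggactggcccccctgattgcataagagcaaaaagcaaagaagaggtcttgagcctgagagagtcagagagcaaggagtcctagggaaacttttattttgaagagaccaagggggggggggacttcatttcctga
Lhfpl3, chr5:22745804-22746053, plus strand: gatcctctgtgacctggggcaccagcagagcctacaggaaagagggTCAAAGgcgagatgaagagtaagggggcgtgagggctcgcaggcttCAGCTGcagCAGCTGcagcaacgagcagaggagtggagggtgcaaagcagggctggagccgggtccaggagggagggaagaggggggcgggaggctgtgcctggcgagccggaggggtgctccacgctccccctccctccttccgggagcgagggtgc
Matn4, chr2:164405161-164405410, minus strand: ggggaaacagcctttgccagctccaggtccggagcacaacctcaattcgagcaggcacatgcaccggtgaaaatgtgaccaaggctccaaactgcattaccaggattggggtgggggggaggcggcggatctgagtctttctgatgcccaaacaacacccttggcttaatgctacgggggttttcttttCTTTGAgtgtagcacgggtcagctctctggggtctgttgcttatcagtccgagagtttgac
Cspg4, chr9:56864854-56865103, plus strand: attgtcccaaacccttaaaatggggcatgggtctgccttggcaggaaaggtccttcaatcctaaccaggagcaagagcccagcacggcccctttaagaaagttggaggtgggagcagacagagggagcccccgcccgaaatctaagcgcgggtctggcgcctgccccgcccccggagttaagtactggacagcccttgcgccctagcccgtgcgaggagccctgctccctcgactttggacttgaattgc
The Lhfpl3 window held 3 matches, TCAAAG at 204 bases and CAGCTG at 158 and 149 bases before the start. The Matn4 window shown held 1, TCAAAG read on the other strand (CTTTGA) at 61 bases before the start, and the window of a second Matn4 start, not shown, held 0. The Pdgfra and Cspg4 windows held 0, which says only that these letters are not in these windows. Matches were also found where the groups overlapped: Sox6 held 12 in its 6 windows, with at least 1 in each. Neu4 held 1, and Ptprz1 and Nkx2-2 held 0. The Pdgfra gene model, chr5:75151322-75198206, begins upstream of the window shown. Of 32851 windows of the same length, 13% held CAGCTG, 16.5% ACAAAG, 13.8% TCAAAG and 37.2% any of them.

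The lithium arrays were not alike in the precursor genes. In control, the summed signal of the 9 genes was 1437 and 1454 on arrays 1 and 2 and 1785 and 1742 on arrays 3 and 4. In lithium it was 759 and 656 on arrays 1 and 2 and 1303 and 1193 on arrays 3 and 4. Within arrays 1 and 2 the median log2 difference of the 9 genes was -1.32, and within arrays 3 and 4 it was -0.28, against -0.032 and 0 for all genes. Lhfpl3 differed by -2.56 in the first pair and -1.11 in the second, Matn4 by -2.64 and -0.80, and Pdgfra by -2.10 and -0.95. C1ql1 differed by -1.70 in the second pair, and by -3.66 in the first, where its lithium signals were under the poly-A controls. The same 7 genes were lower in both pairs. No label names these pairs, and the split was chosen after the data were seen.

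The difference between the pairs was tested as an interaction over all probe sets with limma. Because the split was chosen after these values were seen, its p-values cannot serve as separate support for it. Among the 9 genes, 4 passed at an unadjusted p under 0.05, against 11.6% of all genes, and 0 passed after adjustment, as did 0% of all genes. The Pdgfra difference was nearer to 0 in arrays 3 and 4 by 1.15 in log2 units (standard error 0.15, adjusted p = 0.187 in limma), and that of Lhfpl3 by 1.46 (standard error 0.27, adjusted p = 0.252 in limma). C1ql1 was among the 4, but its lithium signals on arrays 1 and 2 were under the poly-A controls. The same-numbered arrays also correlated in their deviations, and in a fit blocked on the number 0 of the 9 genes passed, with adjusted p-values of 0.104 for C1ql1, 0.111 for Pdgfra, 0.117 for Lhfpl3 and 0.187 for Matn4 in limma. Lithium array 1, which had the lowest median signal, was the lowest array for C1ql1, Lhfpl3, Pdgfra and Gpr17, with array 2 close to it. Without lithium array 1 the median of the 9 genes was -0.56.

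**Figure D3:**
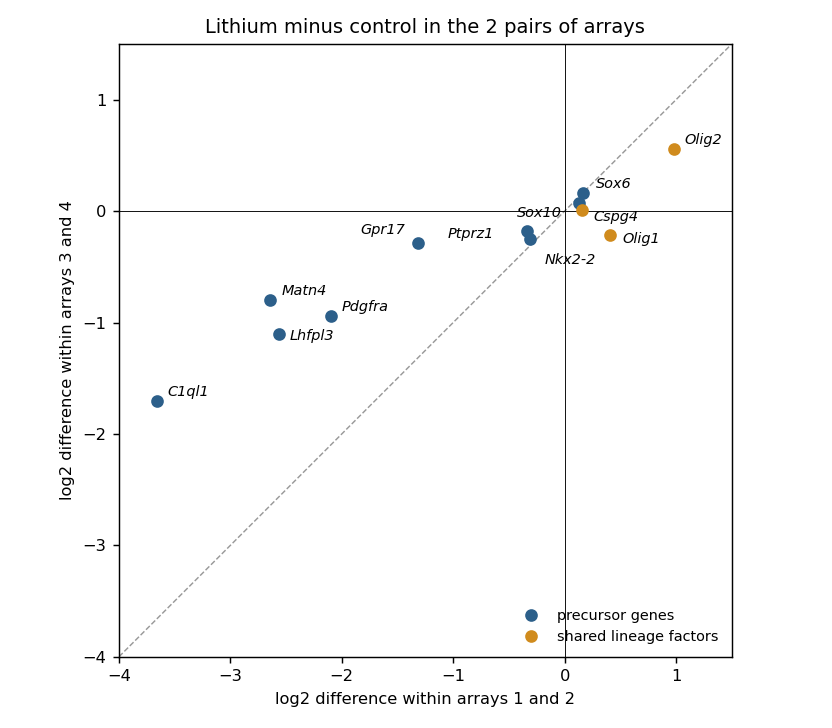
Log2 difference, lithium minus control, within arrays 1 and 2 (horizontal axis) and within arrays 3 and 4 (vertical axis) for the 9 precursor genes (blue) and Olig1, Olig2 and Sox10 (orange), with equal differences on the dashed line. Lhfpl3 (-2.56 and -1.11), Matn4, Pdgfra, Gpr17 and C1ql1 lie well to the left of the line, and the C1ql1 lithium signals on arrays 1 and 2 were under the poly-A controls.

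Of 26 other genes enriched in precursors, 6 fell in limma and 0 rose, against 2.05% and 1.18% of all genes. Non-overlapping groups with lithium lower were seen in 11 of the 26, against 8.79% of all genes, and the median log2 difference was -0.59. Ncan, which encodes the proteoglycan neurocan, gave 455, 501, 438 and 455 in control and 39.2, 31.0, 132 and 116 in lithium. Every lithium array was far below every control array, and the log2 difference was -2.81 (standard error 0.50, adjusted p = 0.0425 in limma). The paper counts neurocan among its astroglial genes that respond to lithium, and which cells carried the Ncan signal was not measured. Scn3a, a voltage-gated sodium channel, fell from 40.4 ± 3.17 to 13.6 ± 5.28 (SD, n = 4 each; log2 difference -1.64, adjusted p = 0.0335 in limma). Itga9, an integrin, fell from 17.1 ± 2.12 to 8.09 ± 1.46 (-1.09, adjusted p = 0.0314 in limma). Its call rests on a probe set whose suffix marks possible cross-hybridisation, and with such probe sets left out the brightest remaining one gave -0.17 (adjusted p = 0.938 in limma). The mean over its probe sets was -0.53 (adjusted p = 0.219). Nxph1, a neurexophilin, fell by 2.31, Tmem100 by 2.03 and Sapcd2 by 1.08 in log2 units (adjusted p = 0.0388, 0.0422 and 0.0376 in limma). With probe sets averaged, Tmem100 was at -1.38 (adjusted p = 0.142 in limma) and Scn3a at -1.18 (0.0756). Sapcd2 did not pass under quantile normalisation (adjusted p = 0.0614 in limma) or median centring (0.0634). Without control array 1, 2, 3 or 4 or lithium array 1, 0 of the 26 genes passed, and without lithium arrays 2, 3 and 4 the counts were 3, 2 and 1. With the replicate block 0 passed.

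**Figure D4:**
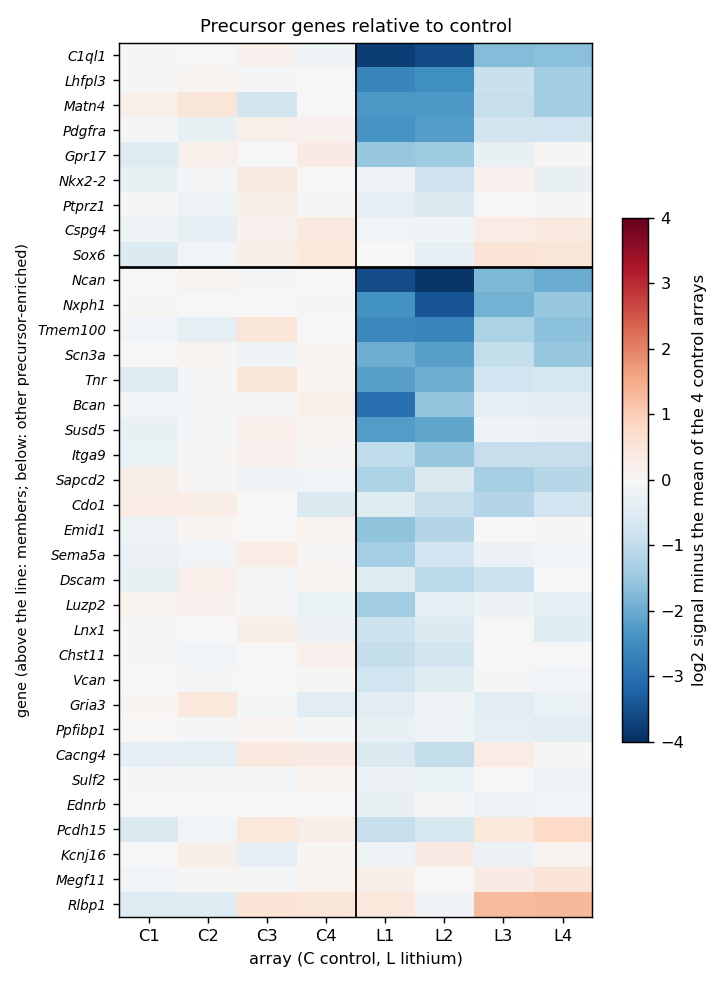
Log2 signal on each array minus the mean of the 4 control arrays, for the 9 precursor genes (above the line) and the 26 other precursor-enriched genes (below), with control arrays C1 to C4 left and lithium arrays L1 to L4 right. Blue is lower and red higher than the control mean, and the deepest blue lies in L1 and L2, for Ncan and C1ql1.

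Genes of the lineage as a whole and of its later stages were compared in the same way. Among all genes, 2.05% fell and 1.18% rose, and 12.6% were lower and 9.38% higher at an unadjusted p under 0.05. Of 21 lineage transcription factors, 0 rose and 0 fell in limma (1 lower and 2 higher at an unadjusted p under 0.05), with a median log2 difference of -0.066. Sox10, which is on at all stages, had 647 ± 106 in control and 682 ± 82.0 in lithium (SD, n = 4 each; log2 difference 0.082, adjusted p = 0.835 in limma). Olig1 had 245 ± 30.1 and 264 ± 53.9 (0.094, adjusted p = 0.845 in limma), which was -0.22 within arrays 3 and 4. Olig2, which specifies the lineage, gave 172, 198, 159 and 154 in control and 359, 368, 228 and 232 in lithium. Every lithium array was above every control array, and the log2 difference was 0.77 (standard error 0.20, adjusted p = 0.103 in limma). It passed with a term for the pairs of arrays, a split chosen after the data were seen (adjusted p = 0.0185), and with a mean intensity of at least 50 (0.0405). It passed under none of the 8 omissions of an array (0.0987 to 0.219), nor with the replicate block (0.0872). Tcf7l2, a factor of newly formed oligodendrocytes, differed by -0.48 (adjusted p = 0.0878 in limma).

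Of 19 genes of committed precursors and newly formed oligodendrocytes, 0 passed in limma (2 lower and 1 higher at an unadjusted p under 0.05), with a median of 0.019. The lowest adjusted p was that of Cemip2, a hyaluronidase (-1.60, adjusted p = 0.0583 in limma), which was called lower in 7 other settings (adjusted p = 0.0121 to 0.0491). It did not pass in the rest, with an adjusted p of up to 0.388 in limma, within arrays 3 and 4. Of 27 myelin and mature oligodendrocyte genes, 0 passed (1 lower and 1 higher at an unadjusted p under 0.05), with a median of -0.036. The counts of both lists stand against 2.05% of all genes lower and 1.18% higher, and 12.6% and 9.38% at an unadjusted p under 0.05. None of the 9 precursor genes had passed either. Aspa, the enzyme that cleaves N-acetylaspartate, had 198 ± 32.2 in control and 363 ± 80.0 in lithium (SD, n = 4 each). Its log2 difference was 0.86 (adjusted p = 0.0647 in limma), and it was called higher in 4 other settings (adjusted p = 0.0205 to 0.0469). Aspa did not pass in the rest, with an adjusted p of up to 0.354 in limma, within arrays 3 and 4. The summed signals of the myelin genes overlapped between the groups. Those of the 9 precursor genes did not (656 to 1303 in lithium against 1437 to 1785 in control). Pdgfra (control mean 527) and Lhfpl3 (293) had the highest control signals of the 9 and weigh most in their sum. Sums did not overlap either for the other precursor-enriched genes (3416 to 4744 in lithium, 5140 to 5555 in control). The same held for the astrocyte markers, the meningeal fibroblast markers and the proliferation genes. The difference between the myelin and precursor lists was not tested.

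**Figure D5:**
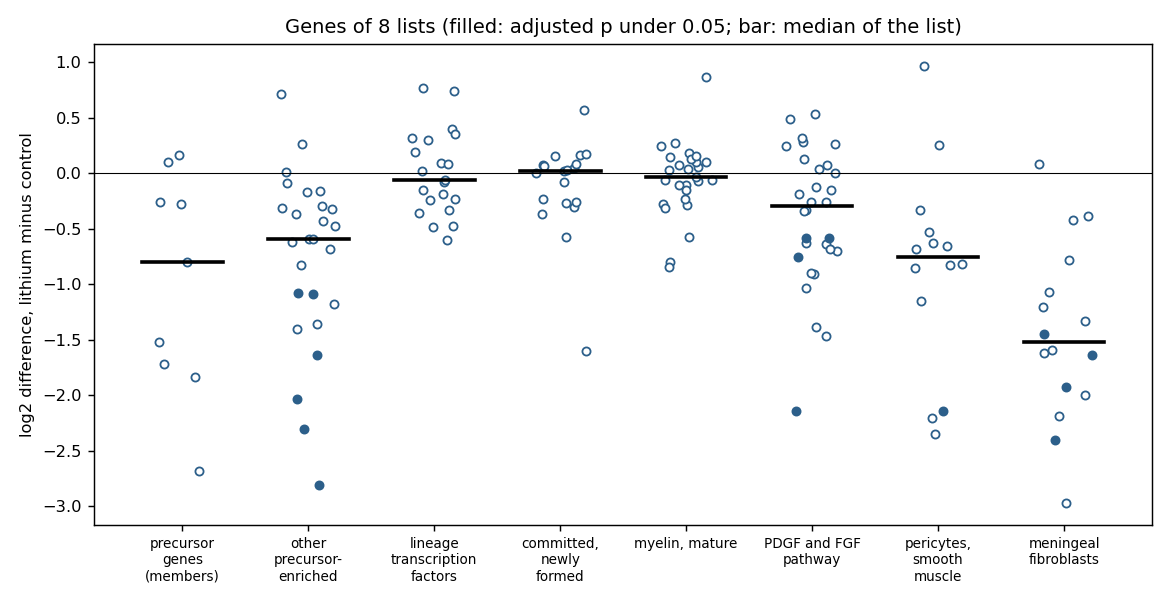
Log2 difference, lithium minus control, of each gene in 8 lists, with filled points for genes at an adjusted p under 0.05 in limma and a bar for the median of the list. The medians are -0.80 for the precursor genes, -0.59 for other precursor-enriched genes, -0.036 for myelin genes and -1.52 for meningeal fibroblast markers.

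The mitogen pathway of precursors was represented by 30 genes of platelet-derived and fibroblast growth factor signalling. Which cells of the nerve carried the signal of these 30 genes was not measured. Of these, 4 fell in limma and 0 rose, against 2.05% and 1.18% of all genes, with a median of -0.30. Pdgfa, which encodes the ligand of the alpha receptor, had 904 ± 75.7 in control and 972 ± 251 in lithium (SD, n = 4 each). Its log2 difference was 0.072 (adjusted p = 0.907 in limma) and turned to -0.18 within arrays 3 and 4. Etv5, an ETS factor induced by growth factor signalling, fell from 266 ± 15.9 to 158 ± 16.6 (-0.75, adjusted p = 0.0199 in limma). Dusp6, a phosphatase that feeds back on ERK, fell from 365 ± 30.4 to 243 ± 21.4 (-0.59, adjusted p = 0.0333 in limma). Pdgfrb, the beta receptor and a marker of pericytes, gave 164, 126, 211 and 285 in control and 26.8, 37.7, 43.2 and 74.5 in lithium. Its groups were far apart in both pairs of arrays (-2.18 and -2.11), with a log2 difference of -2.14 (adjusted p = 0.0401 in limma). Pdgfb, a ligand of both receptors, fell from 28.2 ± 2.85 to 18.9 ± 1.56 (-0.58, adjusted p = 0.0375 in limma).

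These calls rest on all 8 arrays. With 1 array left out, Etv5 passed without control array 2 and without lithium arrays 2, 3 and 4, and Dusp6 and Pdgfrb passed only without lithium array 4. Pdgfb passed under none of the 8 omissions. The adjusted p-values over these omissions were 0.0349 to 0.0608 for Etv5, 0.0482 to 0.0818 for Dusp6, 0.0412 to 0.101 for Pdgfrb and 0.0632 to 0.0952 for Pdgfb in limma. Median centring left 1 call of the 30 genes, with Etv5 at 0.106 and Dusp6 at 0.153, and averaging the probe sets left 2. A mean intensity of at least 50 gave 7, the term for the pairs of arrays 8 and the replicate block 0.

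Of 19 ligands and partners of the proteins encoded by the precursor genes, 1 fell in limma and 0 rose, with a median of -0.27. It was Cntn1, contactin-1, a neuronal and glial adhesion molecule that binds Ptprz1, from 127 ± 17.1 to 71.1 ± 5.57 (SD, n = 4 each; log2 difference -0.83, adjusted p = 0.0241 in limma). It passed when control array 2 or 4 or lithium array 3 or 4 was left out and not without the other 4 (adjusted p up to 0.0674 in limma), nor with the replicate block (adjusted p = 0.0607), median centring (0.0832) or its probe sets averaged (0.108). Of 23 paralogues of the precursor genes, 1 fell, Pdgfrb, and 0 rose, with a median of -0.18. Among all genes 2.05% fell and 1.18% rose.

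Precursors are dividing cells, and of 26 proliferation genes 14 fell in limma and 0 rose, against 2.05% and 1.18% of all genes. The median log2 difference of the 26 was -2.95. The medians were -2.72 within arrays 1 and 2 and -2.97 within arrays 3 and 4, and with the replicate block 6 still passed. Prc1, a regulator of cytokinesis, fell from 348 ± 105 to 37.4 ± 6.08 (SD, n = 4 each; log2 difference -3.18, adjusted p = 0.0104 in limma). Cep55, which acts at abscission, fell from 154 ± 24.3 to 31.4 ± 7.93 (-2.31, adjusted p = 0.0133 in limma). Both passed when each array was left out in turn. These genes mark any dividing cell, and which cells of the nerve carried them was not measured.

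Markers of the remaining cell types were looked at beside the precursor genes. Their counts stand against 2.05% of all genes that fell and 1.18% that rose. Of 16 microglial and macrophage markers, 2 fell, Trem2 (-1.19, adjusted p = 0.0335 in limma) and Tyrobp (-0.82, adjusted p = 0.0374), with summed signals of 6311 to 7932 in control and 5511 to 6778 in lithium. Without probe sets of possible cross-hybridisation, the Trem2 difference was 0.068. Of 13 endothelial markers, 1 fell, Kdr, a receptor for vascular endothelial growth factor (-1.35, adjusted p = 0.0321 in limma). The Kdr signal was low, 16.1 ± 4.53 in control and 6.20 ± 0.74 in lithium (SD, n = 4 each). The highest poly-A controls of the lithium arrays were 3.56 to 4.33, so the size of this difference is uncertain. Endothelial sums were 630 to 1181 in control and 352 to 776 in lithium. Of 11 neuronal and retinal markers, 1 fell, Stmn2 (-2.45, adjusted p = 0.0136 in limma). Their median was -0.28, with 6 below 0, and their sums overlapped (803 to 1066 in control, 763 to 991 in lithium). Of 6 Schwann cell markers, 1 fell, Egr2 (-1.48, adjusted p = 0.0376 in limma). Only 2 of the 6 were below 0, their median was 0.13, and 2 were lower and 2 higher at an unadjusted p under 0.05. Stmn2 passed without each array in turn but not with the replicate block (adjusted p = 0.0550 in limma), whereas the others passed without 1 array each: Trem2 and Egr2 without lithium array 2, Tyrobp without lithium array 3 and Kdr without control array 1. The part of these cells in the precursor values was not tested.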

How the data were processed

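RNA from 8 samples of cultured mouse optic nerve, 4 control and 4 lithium, had been hybridised to 1 Affymetrix mouse array each. The authors obtained MAS5 signals in Agilent GeneSpring GX 12 and deposited them as linear intensities, 1 per probe set and array. They had first used GeneChip Operating Software, in a version not given in the sources used here. Study methods also name a baseline transformation that these intensities do not show. The table held 45101 probe sets, and 64 Affymetrix controls were left out. In the platform annotation 34958 probe sets had 1 symbol and 932 several, and no gene was named from the latter.

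Intensities were floored at 1, which applied to 13.1% to 16.6% of them on an array, and taken to log2. Lithium minus control was fitted over 45037 probe sets with lmFit and eBayes of limma 3.58.1 (R 4.3.3), without a block, with Benjamini-Hochberg adjustment over all of them. Rose and fell are used for an adjusted p under 0.05. Intervals cover 95%, linear signals gave means and SDs, and a fold is the difference of mean log2 values. MAS5 signals of low genes vary widely on a log2 scale, and the trimmed mean scaling assumes like totals.

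The members, the lists, the tests and the rule for named genes were chosen with earlier results of these data known. The rule names all 10 members, up to 2 rising and 2 falling called genes of each list by adjusted p (where none was called, the one with the lowest), and Olig1, Olig2, Sox10, Pdgfa and Pdgfrb. Ncan, Nxph1, Tmem100, Sapcd2 and Pdgfb were named after their values were seen.

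Both groups carry replicate numbers 1 to 4. The labels do not say what a number marks, but once group means were removed, arrays of the same number correlated (0.130 to 0.197 over 4 pairs, each above a limit of 0.1). The numbers were therefore used as a replicate block, from the data alone, but only in an alternative fit. The main fit, which gave the calls, ignored them. Deviations within arrays 1 and 2 or 3 and 4 also correlated (0.071 to 0.131), and those across did not (-0.181 to -0.066).

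Alternatives were quantile normalisation, median centring, log2 of the intensity plus 16, a mean intensity of at least 50, averaging the probe sets of a gene, omission of _x_at and _s_at probe sets, a robust variance with a trend, weights for arrays, the replicate block, a term for the pairs of arrays, fits within them and omission of each array. The interaction of lithium with the pairs was added after the data were seen. The fit was tested on simulated data. Promoters were read with Python 3.11.15 and figures drawn with matplotlib 3.10.9.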

Additional observations from a re-analysis of the deposited data

Results flagged for a closer look

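In 2 of 92 groups of 4 arrays looked at, for the probe sets of the precursor genes and of the other named genes, 1 array stood apart from the other 3, and chance alone would set 1 apart in about 1 of 20 groups. For Lhfpl3 (1433990_at), control array 2 gave 313 where the other 3 control arrays gave 285 to 287, and its gap was 0.906 of the control range, above Dixon's limit for 4 values. Without that array the Lhfpl3 groups still did not overlap. For the Pdgfra probe set 1438946_at, control array 2 gave 57.5 where the others gave 86.5 to 92.0, a gap of 0.841 of the range.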

How the results depend on the processing

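The 9 precursor genes gave 0 calls in limma, with 4 at an unadjusted p under 0.05, and this count depended on the processing. It was 2 under quantile normalisation, 2 under median centring, 2 with log2 of the intensity plus 16, 2 with a mean intensity of at least 50 required (which left 6 of the 9 genes), 1 with probe sets averaged per gene, 2 with a trended and robust variance and 3 with a term for the pairs of arrays. With 1 array left out it ranged from 0 to 1, the 1 being Lhfpl3 without lithium replicate 3. It was 0 without the _x_at and _s_at probe sets, with array weights, within each pair of arrays and with the replicate block, and 0 genes were called higher under any of these. The genes gained were C1ql1 in 6 of these settings, Lhfpl3 in 7 and Pdgfra in 2, with a mean of at least 50 (adjusted p = 0.0399 in limma) and with the term for the pairs (adjusted p = 0.0269). Matn4 passed in none. Over all genes, 373 of 18193 were called lower in the main fit. Quantile normalisation gave 480, median centring 429, log2 of the intensity plus 16 gave 632 and probe sets averaged 462. The trended and robust variance gave 546, the term for the pairs 1039, and a mean of at least 50 gave 506 of 9233 genes. Directions of Pdgfra, C1ql1, Matn4 and Lhfpl3 were negative in every setting that tested them. The median over the 9 genes, -0.80 in the main fit, was the value of Gpr17. It was -0.43 with 16 added, and -0.27 over the 6 genes left by the mean of at least 50.

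Of the other 26 precursor-enriched genes, the 6 called lower became 3 with the mean of probe sets and 0 with the replicate block. The count was 0 within arrays 1 and 2, 0 within arrays 3 and 4 and 0 to 3 with 1 array left out. With the mean of at least 50 it was 1, but Itga9 and Scn3a lay under that mean and were not tested there. With the term for the pairs, 1 was called higher. Trem2, called at -1.19, lost its call and went to 0.068 without _x_at and _s_at probe sets. Small differences changed sign: Olig1 to -0.033 with array weights and -0.22 within arrays 3 and 4, and Pdgfa to -0.069 with array weights and -0.18 within arrays 3 and 4. With 1 array left out, Cspg4 ranged from -0.030 (without control replicate 2; -0.0014 without lithium replicate 4) to 0.23, Sox6 from -0.017 (without control replicate 1) to 0.33, Olig1 from -0.0059 (without lithium replicate 1) to 0.23 and Pdgfa from -0.058 (without lithium replicate 1; -0.014 without lithium replicate 2) to 0.19. The cause was not tested. Under the replicate block, calls over all genes went from 214 higher and 373 lower to 9 and 63, and for all lists named here only 6 proliferation genes passed.

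With 4 arrays a group and a wide spread among the lithium arrays, adjusted p-values near 0.05 move with each choice. Signals near those of the poly-A controls, as for C1ql1 on lithium arrays 1 and 2, have little precision on a log2 scale: with 16 added, the C1ql1 difference was -1.24 in place of -2.68.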
